A study of Mus musculus with 4 samples.

Results

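The GABAergic interneuron genes described here are 9 genes of GABA synthesis, vesicle transport and interneuron identity: Gad1, Gad2, Slc32a1, Pvalb, Lhx6, Dlx1, Dlx2, Dlx6 and Reln. They were taken by symbol from a table of raw read counts for 55414 mouse genes, and all 9 were found and passed the filter on low counts. The counts came from 4 bulk messenger RNA libraries, 2 labelled wild-type (WT) and 2 labelled Stra8-KO (KO), with brain as the labelled tissue. In the series design, animals of both genotypes carried the pStra8-GFP reporter, in which the promoter of Stra8 drives green fluorescent protein, and GFP-positive cells were sorted from hippocampi. Stra8 is best known for its part in the start of meiosis in germ cells. The stated question was how the transcriptome of such cells differs without Stra8. The labels give no age, sex, strain or number of animals for a library, and do not say whether libraries of the same genotype were made from different animals. The p-values therefore measure only how these libraries spread, which may be technical. In the counts, the column names of both KO libraries carry a suffix that those of the WT libraries lack. Its meaning is not stated, and any difference it marks cannot be told apart from genotype.

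Inhibitory neurons make GABA from glutamate with the decarboxylases that Gad1 and Gad2 encode, and load it into synaptic vesicles through the transporter encoded by Slc32a1. The Dlx homeobox genes act early in the ventral forebrain, where forebrain inhibitory neurons arise, and Lhx6 acts after them in cells of the medial ganglionic eminence (MGE), the source of parvalbumin and somatostatin interneurons. Parvalbumin (Pvalb) buffers calcium in fast-spiking cells, and reelin (Reln) is a secreted glycoprotein of several interneuron types and of Cajal-Retzius cells. Outside the hippocampus, Purkinje cells also transcribe Gad1 and Pvalb, cerebellar granule cells also transcribe Reln, and striatal projection neurons also transcribe both Gad genes.

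Total counts ran from 71097417 to 82172740 per library. Stra8 itself had 1 to 7 reads in each library, too few to check the genotype labels. The libraries were not of inhibitory neurons alone, since Slc17a7, the vesicular glutamate transporter of cortical and hippocampal excitatory neurons, stood at 1157 CPM in WT and 1182 CPM in KO. CPM are counts scaled to the library total, here taken with the normalised library size. Every gene of the cerebellar, striatal and glycinergic marker lists used below had reads in all 4 libraries, but many neurons transcribe some of them, such as Itpr1 and Glrb. From the cerebellar granule cell list, Cbln3 stood at 46.6 CPM in WT and 19.8 CPM in KO, and Gabra6 at 24.2 and 11.0 CPM. The libraries thus also held transcripts used as markers of regions other than hippocampus.

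Across the 9 genes, 1 fell in KO, 0 rose and 8 did not pass the test. The 1 that fell was Pvalb. Over all 21592 genes tested, 6.53% were called, 3.35% higher and 3.19% lower in KO, at a Benjamini-Hochberg adjusted p under 0.05 (edgeR quasi-likelihood test, n = 2 libraries per genotype). Among genes with a mean of at least 5 CPM, as all 9 had, 11.1% were called, and 1 of 9 is also 11.1%, so the share among the interneuron genes was that of the background. The genotypes did not overlap in CPM for 6 of the 9 genes, beside 45.7% of all genes tested and 52.6% of those with at least 5 CPM. The median log2 fold change of the 9 genes, KO over WT, was 0.040, and that of all genes tested was -0.00038. The median size of the change regardless of sign was 0.058 for the 9 genes and 0.048 for genes with at least 5 CPM.

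**Figure D1:**
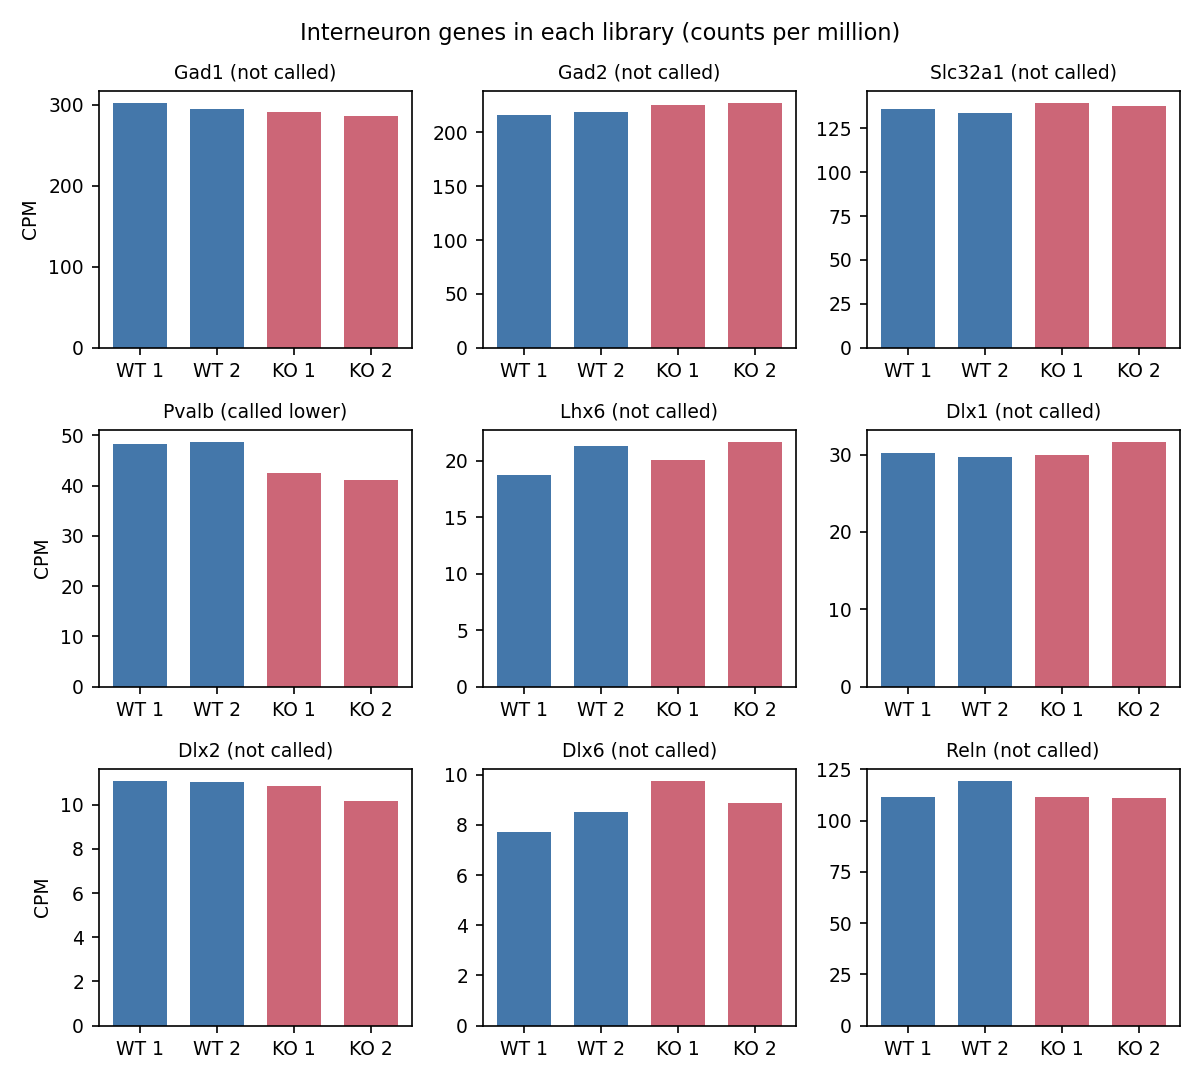
CPM of each of the 9 genes (vertical axis, from 0) in WT libraries 1 and 2 (blue) and KO libraries 1 and 2 (red), 1 bar per library. Pvalb is lower in both KO libraries, at 42.5 and 41.1 CPM against 48.2 and 48.7 CPM, and none of the other 8 genes passed the test.

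The genes differed widely in level. Divided by summed exon length in the GENCODE M21 annotation, Slc32a1 was highest, with 48.9 CPM per kilobase as the mean of the 4 libraries. It was followed by Pvalb with 43.3, Gad1 with 38.4 and Gad2 with 37.8 CPM per kilobase. Dlx1, at 5.63 CPM per kilobase, led a lower group with Reln at 4.77, Lhx6 at 4.26, Dlx2 at 3.78 and Dlx6 at 3.67 CPM per kilobase. The ranges over the 4 libraries overlapped between Pvalb and Gad1, between Gad1 and Gad2, and between Dlx2 and Dlx6. For the other neighbours in this order the ranges did not overlap. Exon length includes exons of all annotated isoforms, so a gene whose main transcript is short has its level understated.

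The GABA synthesis genes moved little and in opposite directions. Gad1 (ENSMUSG00000070880), which encodes the larger form that makes most of the brain's GABA, was measured at 302.3 CPM in WT library 1 and 294.8 CPM in WT library 2, and at 290.9 CPM in KO library 1 and 286.5 CPM in KO library 2. Both KO values were below both WT values. The means were 298.6 ± 5.36 and 288.7 ± 3.07 CPM (± SD, n = 2), and the log2 fold change of -0.048 (SE 0.018) did not pass the test (edgeR adjusted p = 0.122). With 1 library left out, the Gad1 estimate ranged from -0.066 to -0.029, the latter without WT library 1. Gad2 (ENSMUSG00000026787), which encodes the smaller form found at synaptic terminals, had 215.9 and 219.2 CPM in WT and 225.6 and 227.6 CPM in KO. Here both KO values were above both WT values. The log2 fold change was 0.059 (SE 0.018), just short of the threshold (edgeR adjusted p = 0.058), and its 95% interval ran from 1.45% to 6.95% higher in KO. Gad2 was called when genes with a low count were filtered more strictly (edgeR adjusted p = 0.0434), and Gad1 when libraries were scaled by size alone (edgeR adjusted p = 0.0497).

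The ratio of Gad1 to Gad2 within a library does not depend on library scaling. Per kilobase it was 1.08 and 1.04 in the WT libraries and 0.992 and 0.969 in the KO libraries. Without division by exon length it was 1.4 and 1.345 in WT and 1.289 and 1.259 in KO. Which of the pair was higher in KO therefore rests on the exon lengths used. A switch of the higher gene between genotypes cannot be read from these ratios. On the log2 scale the ratio was lower in KO by a difference of -0.11. An exact two-sided permutation test over libraries gave p = 0.333, the smallest that 2 against 2 libraries allow, and the same value after adjustment over the 4 ratios computed.

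Slc32a1 (ENSMUSG00000037771), the vesicular GABA transporter, had 136.1 and 133.7 CPM in WT and 139.6 and 137.9 CPM in KO. The KO values lay above the WT values without overlap, but the log2 fold change of 0.040 (SE 0.022) did not pass (edgeR adjusted p = 0.367). Its 95% interval ran from -0.374% to 6.17%. The antisense gene Gm14205 shares exon sequence with Slc32a1 and had 17 to 32 reads per library, against 9768 to 11424 for Slc32a1. Whether the counting used strand is not stated, so reads of the shared stretch cannot be separated.

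**Figure D2:**
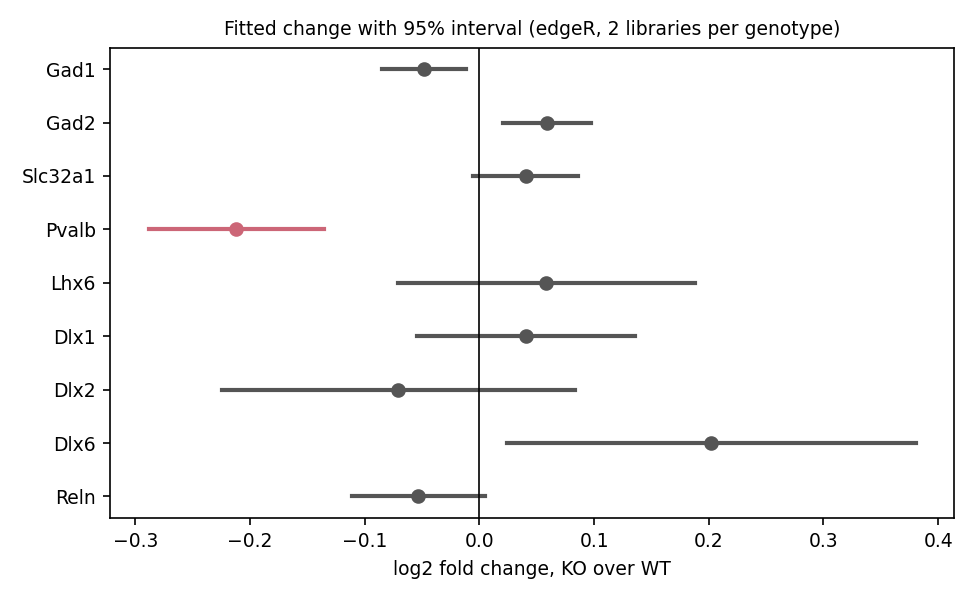
Log2 fold change, KO over WT (horizontal axis), of the 9 genes, with points for the edgeR fit and lines for the 95% interval of 2 libraries per genotype. The interval of Pvalb (red) lies from -0.29 to -0.14, and those of 5 genes include 0.

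Pvalb (ENSMUSG00000005716) was the 1 gene of the 9 that was called, though the 95% intervals of Gad1, Gad2 and Dlx6 also excluded 0. WT library 1 had 48.2 CPM of it, WT library 2 48.7 CPM, KO library 1 42.5 CPM and KO library 2 41.1 CPM, from 2910 to 3995 reads per library. The genotypes did not overlap, and the gap of the means, 48.4 ± 0.38 against 41.8 ± 1.01 CPM (mean ± SD, n = 2), was several times the spread within either genotype. Pvalb fell by 0.21 on the log2 scale (SE 0.037, edgeR adjusted p = 0.000401), with a 95% interval from -18.1% to -8.98%. The call was kept in all 14 alternative fits, in which the log2 fold change ranged from -0.24 to -0.19. In bulk samples, fewer cells of a type and less RNA per cell cannot be told apart.

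The RefSeq promoter table (GRCm38.p6) lists 2 starts for Pvalb, and the 250 bases before the upstream start are shown because this is the gene that was called. They lie at chr15:78206401-78206650 on the minus strand, and capitals mark the run TATTTAA, which resembles the box that positions transcription starts and begins 32 bases before this one.
Pvalb: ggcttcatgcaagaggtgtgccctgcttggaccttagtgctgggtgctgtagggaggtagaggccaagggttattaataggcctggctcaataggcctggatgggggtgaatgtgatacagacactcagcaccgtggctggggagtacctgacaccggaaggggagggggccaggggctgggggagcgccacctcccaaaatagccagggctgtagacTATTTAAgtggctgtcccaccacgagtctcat
TATTTAA was found on either strand in 4.18% of the 32851 windows of the same length in the table. None of the other 4 motifs searched, which are named with the Lhx6 window, was found here. The second Pvalb window held none of the 5 motifs.

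Pvalb fell in KO, and so did most genes of the list for Purkinje cells, which transcribe it too. Apart from Pvalb and Gad1, 8 of the 10 other genes of the Purkinje list fell, 1 rose and 1 did not pass, and their summed level was 1005 and 1013 CPM in WT and 862.6 and 861.3 CPM in KO. None of them was at 0 reads in any library. Pcp2, which encodes a G-protein modulator of these cells, fell from 18.98 to 7.39 CPM (log2 fold change -1.36) and Car8, whose product binds the IP3 receptor, from 62.4 to 34.0 CPM (-0.88). Relative to the WT mean, Pvalb stood at 87.8% and 84.8% in the KO libraries and the sum of the other Purkinje genes at 85.5% and 85.4%. Itpr1, the IP3 receptor gene that many neurons transcribe, made up 61.9% of that sum, and without it the rest stood at 82.2% and 79.5%. The sums without the most abundant gene of a list, here and below, were added after the data were seen. The single genes ran from Pcp2 to Pcp4, a calmodulin-binding peptide gene that rose by 0.27 on the log2 scale. Pcp2 and Car8 fell by more than Pvalb, which stood at -0.21, and Itpr1 fell by less, at -0.18. Nearness of Pvalb to the sum is therefore not a likeness to each marker. The part of Purkinje cell transcripts in the fall of Pvalb was not tested.

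The thalamic reticular nucleus also holds parvalbumin cells. Of the 5 genes of its list other than Pvalb and Gad2, 0 were called, with estimates of both signs. Nearest to the threshold were Six3 and Ecel1, both higher in KO (log2 fold change 0.20 and 0.17, edgeR adjusted p = 0.0525 and 0.0708). Meis1 and Spp1, named after their values were seen, had negative estimates (-0.16 and -0.11). Somatostatin (Sst), the peptide of the other large MGE-derived class, had 146.3 ± 0.26 CPM in WT and 152.6 ± 4.23 CPM in KO and did not pass (log2 fold change 0.059, edgeR adjusted p = 0.138). The ratio of Pvalb to Sst was 0.330 and 0.332 in the WT libraries and 0.284 and 0.264 in the KO libraries. The ratio of Pvalb to Gad1 was 0.159 and 0.165 in WT and 0.146 and 0.143 in KO. For both ratios the exact permutation p was 0.333, again the smallest possible.

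**Figure D3:**
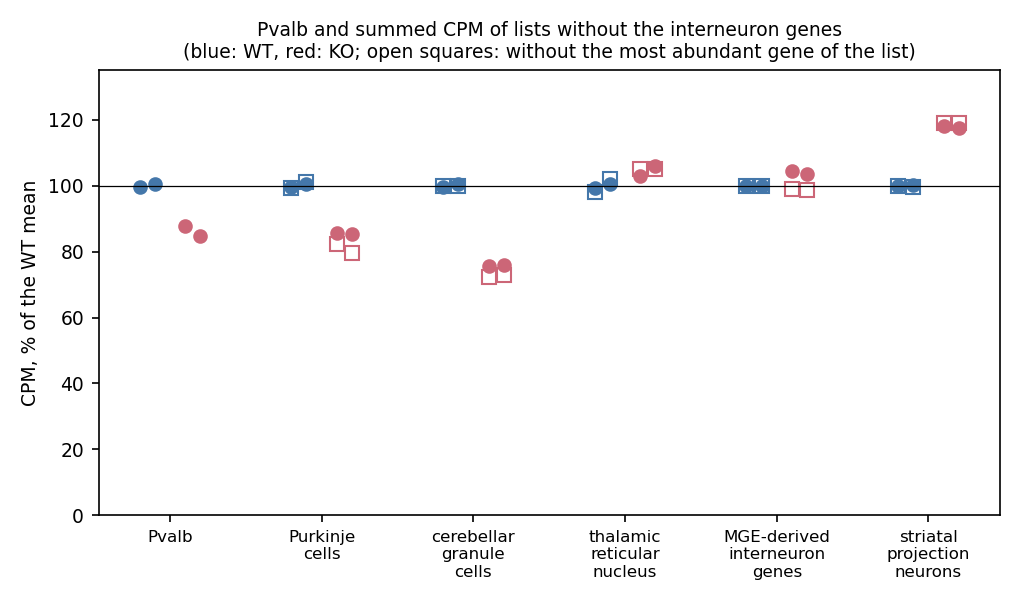
CPM as a percent of the WT mean (vertical axis, from 0) for Pvalb and for the summed CPM of 5 marker lists without the 9 interneuron genes, with 1 point per library (blue WT, red KO) and open squares for the sum without the most abundant gene of the list. In the KO libraries Pvalb is at 87.8% and 84.8%, the Purkinje list at 85.5% and 85.4% or, without Itpr1, at 82.2% and 79.5%, and the MGE-derived list at 104.4% and 103.5% or, without Mef2c, at 99.1% and 98.7%.

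The 3 genes whose profile over the 4 libraries was most like that of Pvalb were Il33, Nrros and Pip5k1b. Likeness was the Euclidean distance between log2 CPM profiles, each centred on its own mean, and was 0.00758, 0.0129 and 0.0172 for these genes. Il33, an alarmin cytokine gene, had 21.3 and 21.4 CPM in WT and 18.8 and 18.1 CPM in KO. With 4 libraries such a match is common, and 434 of 11462 genes lay within a distance of 0.1 of Pvalb.

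Lhx6 (ENSMUSG00000026890), the LIM-homeodomain factor of MGE-derived interneurons, had 18.8 and 21.3 CPM in WT and 20.1 and 21.7 CPM in KO. The genotypes overlapped, and the spread within WT was larger than the difference of the means. The fitted log2 fold change, 0.058 with SE 0.063, did not pass (edgeR adjusted p = 0.722), and it was -0.029 without WT library 1. The 95% interval ran from -4.80% to 13.9%, so a change of Lhx6 as large as that of Pvalb in the downward direction lay outside it.

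Among the 11 promoter windows found for 8 of the 9 genes, only the third Lhx6 window held CNCCTCAG, a motif described at promoters bound by STRA8 and its partner MEIOSIN in germ cells. It is shown for that reason. The 250 bases lie at chr2:36104061-36104310 on the minus strand (GRCm38.p6), and capitals mark the match, which begins 189 bases before the start.
Lhx6: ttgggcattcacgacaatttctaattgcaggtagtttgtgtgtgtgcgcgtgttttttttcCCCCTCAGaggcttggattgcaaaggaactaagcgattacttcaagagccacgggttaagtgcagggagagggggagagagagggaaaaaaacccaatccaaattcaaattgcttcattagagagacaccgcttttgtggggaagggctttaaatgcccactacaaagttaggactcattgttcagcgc
On either strand CNCCTCAG was found in 6.42% of all windows. CACGTG, the palindromic E-box, was found in the Dlx2 and Reln windows and in 6.02% of all windows, and TATAAA in the Gad1 window and in 12.4% of all. TAATTA, a core letter run of homeodomain sites, was in 0 of the 11 windows and in 4.84% of all. None of these matches overlapped another, and Lhx6, Dlx2, Reln and Gad1 were all among the genes that did not pass the test.

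The 3 Dlx genes, homeobox factors of the subpallium, were in the lower group by level and none passed. Dlx1 (ENSMUSG00000041911) had 30.2 and 29.7 CPM in WT and 30.0 and 31.7 CPM in KO, and the genotypes overlapped (log2 fold change 0.041, SE 0.046, edgeR adjusted p = 0.743). Without KO library 2 the Dlx1 estimate was 0.0028, and without KO library 1 it was 0.081. Dlx2 (ENSMUSG00000023391), its neighbour in the genome, had 11.1 and 11.0 CPM in WT and 10.9 and 10.2 CPM in KO. The Dlx2 values did not overlap, but the difference of the means, 11.1 ± 0.034 against 10.5 ± 0.48 CPM (± SD, n = 2), was close in size to the SD of the KO pair (edgeR adjusted p = 0.717, log2 fold change -0.071 with SE 0.075). Without KO library 2 the Dlx2 estimate was -0.025, and without KO library 1 it was -0.12.

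Dlx6 (ENSMUSG00000029754) had the largest estimate in the upward direction, and the lowest mean level per kilobase. It stood at 7.70 and 8.52 CPM in WT and 9.76 and 8.88 CPM in KO, from 621 to 799 reads per library. The genotypes did not overlap, with KO above WT, and the log2 fold change of 0.20 (SE 0.086) was close in size to that of Pvalb but did not pass (edgeR adjusted p = 0.206). It moved to 0.13 when WT library 1 or KO library 1 was left out, and to 0.28 and 0.27 without WT library 2 and KO library 2. Its 95% interval was wide, from 1.69% to 30.2% higher in KO. Dlx5, which pairs with Dlx6 in the genome, had 10.5 ± 0.17 CPM in WT and 10.7 ± 0.42 CPM in KO (edgeR adjusted p = 0.922). The ratio of Dlx6 to Dlx5 was 0.740 and 0.801 in WT and 0.887 and 0.852 in KO (exact permutation p = 0.333).

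Antisense RNAs run through both Dlx pairs. Dlx1as, which overlaps exons of Dlx1, had 368 to 490 reads per library against 2243 to 2454 for Dlx1, and its counts cannot be fully separated from those of Dlx1. Dlx1as had 5.28 ± 1.12 CPM in WT and 5.88 ± 0.44 CPM in KO and did not pass. Dlx6os1, the long non-coding RNA of the Dlx5 and Dlx6 locus, had 21.0 ± 1.06 CPM in WT and 23.0 ± 0.13 CPM in KO (edgeR adjusted p = 0.186, log2 fold change 0.13 with SE 0.054). Dlx6os2, which shares exon sequence with Dlx6, had 8 to 19 reads per library.

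Reln (ENSMUSG00000042453) stood at 111.4 CPM in WT library 1, 119.4 CPM in WT library 2, 111.7 CPM in KO library 1 and 110.8 CPM in KO library 2. The genotypes overlapped, and WT library 2 stood above the other 3. The log2 fold change of -0.053 (SE 0.028) did not pass (edgeR adjusted p = 0.339). This value rested on WT library 2: without it the log2 fold change was -0.0021, and without WT library 1 it was -0.10 and passed (edgeR adjusted p = 0.038). The cerebellar granule cell list, whose cells transcribe Reln, fell in 11 of its 11 other genes, with a sum of 805.3 and 811.6 CPM in WT and 610.8 and 614.9 CPM in KO, and none was at 0 reads. Of the 8 other genes of the Cajal-Retzius list, 2 fell and 6 did not pass, with a sum of 128.3 and 130.4 CPM in WT and 115.8 and 116.5 CPM in KO. Those that fell were Lhx1, a LIM-homeodomain factor gene that Purkinje cells also transcribe, and Calb2, the calretinin gene, which cerebellar granule cells also transcribe. Calb2 made up 62.6% of the sum, and without it the sum was 47.9 and 47.8 CPM in WT and 44.8 and 43.2 CPM in KO. Trp73, a defining gene of Cajal-Retzius cells, had 2.85 ± 0.31 and 2.22 ± 0.28 CPM and did not pass. The part of these cells in the level of Reln was not tested. In the reelin pathway, which runs from the receptors Vldlr and Lrp8 to the adaptor Dab1, 0 of 11 genes were called. Dab1 had 107.7 CPM in WT and 102.9 CPM in KO (edgeR adjusted p = 0.144).

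**Figure D4:**
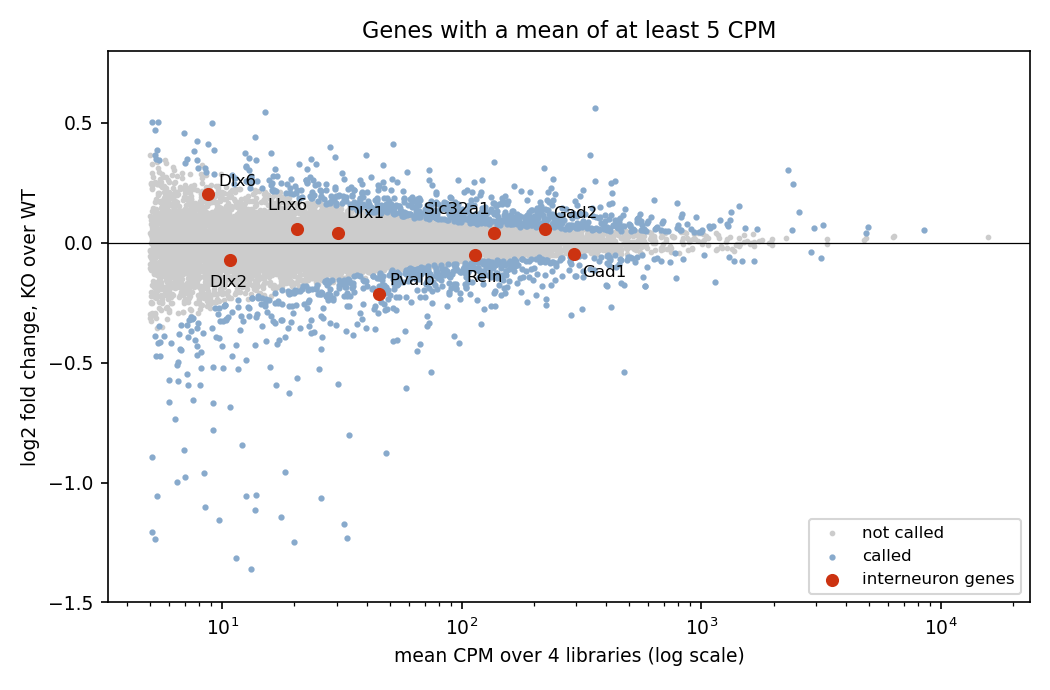
Log2 fold change, KO over WT (vertical axis), against mean CPM over the 4 libraries (horizontal, log scale) for the 11909 genes with at least 5 CPM, called genes in blue and the 9 interneuron genes in red. Pvalb lies at the lower edge of the cloud with -0.21, Dlx6 among uncalled genes of low level with 0.20, and the other 7 close to 0.

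The genes that handle GABA beyond the interneuron genes were also nearly flat. Of 13 genes of GABA synthesis, loading, uptake and breakdown, 0 rose, 2 fell and 11 did not pass, with a median of 0.0036. That list includes Gad1, Gad2 and Slc32a1. Of its 10 other genes, 0 rose, 2 fell and 8 did not pass, with a median of -0.014. Glul, the glutamine synthetase of astrocytes, fell from 1514 to 1434 CPM (edgeR adjusted p = 7.31e-05, log2 fold change -0.078 with SE 0.012), a call that ended with halved counts (edgeR adjusted p = 0.059). On the receiving side, 1 of 10 genes of the inhibitory postsynapse and chloride transport fell and 0 rose, with a median of 0.017. The 1 was Slc12a2, the chloride importer NKCC1, which went from 112.4 to 105.3 CPM and was not called when WT library 1 (log2 fold change -0.050, edgeR adjusted p = 0.571) or KO library 2 (edgeR adjusted p = 0.081) was left out, with DESeq2 (adjusted p = 0.097) or with halved counts (edgeR adjusted p = 0.052). Of 8 GABA-B receptor genes 2 rose and 1 fell. Kcnj9, a potassium channel opened by the receptor, rose from 139.0 to 155.6 CPM, and Kctd12, an auxiliary subunit, fell from 110.6 to 97.1 CPM. The receptor subunit gene Gabbr2 rose by 0.061 on the log2 scale, which moved to 0.046 when WT library 1 was left out (edgeR adjusted p = 0.194) and to 0.041 when KO library 2 was (edgeR adjusted p = 0.221). It also missed the threshold with library size alone (edgeR adjusted p = 0.060).

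Among 15 measured Dlx and subpallial transcription factors, 2 rose, 0 fell and 13 did not pass, with a median of 0.11. Foxp2, which striatal projection neurons and other neurons transcribe, rose from 22.4 to 26.5 CPM (edgeR adjusted p = 0.00251, log2 fold change 0.24 with SE 0.050). Striatal projection neurons are themselves GABAergic and arise in the Dlx-positive subpallium, and all 12 genes of their list rose, with a sum of 1189 and 1191 CPM in WT and 1406 and 1399 CPM in KO. None was at 0 reads. Penk, the enkephalin gene, rose from 195.8 to 243.3 CPM. The part of striatal transcripts in Gad2, Dlx6 and Foxp2 was not tested.

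The MGE-derived interneuron list had as many rises as falls. Of 16 genes, 3 rose, 3 fell and 10 did not pass, with a median of 0.021. For this and the other lists, the background was 6.53% called over all genes tested and 11.1% of those with at least 5 CPM. Mef2c, a factor of parvalbumin interneurons and of cortical excitatory neurons, rose from 329.1 to 393.0 CPM (0.26 on the log2 scale, SE 0.017). Beside Pvalb, the genes that fell were Syt2, the fast calcium sensor of vesicle release, from 100.5 to 88.3 CPM, and Nos1, the neuronal nitric oxide synthase, from 109.2 to 98.9 CPM. Cerebellar and hindbrain neurons transcribe Syt2, and cerebellar granule and basket cells transcribe Nos1, and the part of these cells in both falls was not tested. The other rises, Satb1 from 102.9 to 110.7 CPM and Tac1 from 23.0 to 27.2 CPM, are named after their values were seen. Satb1 was not called without WT library 1 or KO library 2 (edgeR adjusted p = 0.163 and 0.061), and Tac1, a striatal gene too, was not called without KO library 1 (log2 fold change 0.11, edgeR adjusted p = 0.406).

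The list of interneurons from the caudal ganglionic eminence, the source of the vasoactive intestinal peptide and cholecystokinin classes, had 4 rises, 2 falls and 10 genes that did not pass among 16, with a median of -0.030. Lamp5, a membrane protein of neurogliaform cells that cortical excitatory neurons share, rose from 111.2 to 127.7 CPM (0.20 on the log2 scale, SE 0.024). Cck, the cholecystokinin gene, rose from 233.6 to 250.2 CPM. Prox1, also the identity factor of dentate granule cells, fell from 56.6 to 46.8 CPM (-0.27, SE 0.035), and Calb2 (calretinin), also transcribed in cerebellar granule cells, fell as well, from 81.6 to 72.1 CPM (-0.18, SE 0.029). The other rises, named after their values were seen, were the peptide genes Npy, from 48.8 to 55.6 CPM, and Vip, from 17.0 to 20.1 CPM. Vip was not called when either WT library 1 (edgeR adjusted p = 0.190) or KO library 1 (edgeR adjusted p = 0.117) was left out.

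Perineuronal nets are the matrix coats found mostly around parvalbumin cells. Of 11 of their genes 2 rose, 1 fell and 8 did not pass, with a median of 0.0071. Ncan (neurocan) rose from 357.9 to 396.4 CPM, and Hapln2, a link protein of myelinated fibres, fell from 30.3 to 26.0 CPM, a call that ended without KO library 2 (edgeR adjusted p = 0.0504). Tnr rose by 0.063 on the log2 scale, and this call ended without WT library 1, WT library 2 or KO library 1 (edgeR adjusted p = 0.0745, 0.0887 and 0.0537) and with library size alone (0.0563). Glycinergic neurons of the hindbrain share Slc32a1. In their list of 6 genes 2 fell, namely Slc6a5, the glycine transporter, from 11.5 to 5.37 CPM, and Pax2 from 1.61 to 0.788 CPM, while Slc32a1 did not pass. The 5 genes other than Slc32a1 summed to 180.8 and 182.5 CPM in WT and 179.1 and 172.6 CPM in KO, and none was at 0 reads. Glrb, the receptor subunit gene that many neurons transcribe, made up 90.1% of this sum, and without it the sum was 20.6 and 22.8 CPM in WT and 13.2 and 14.2 CPM in KO.

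**Figure D5:**
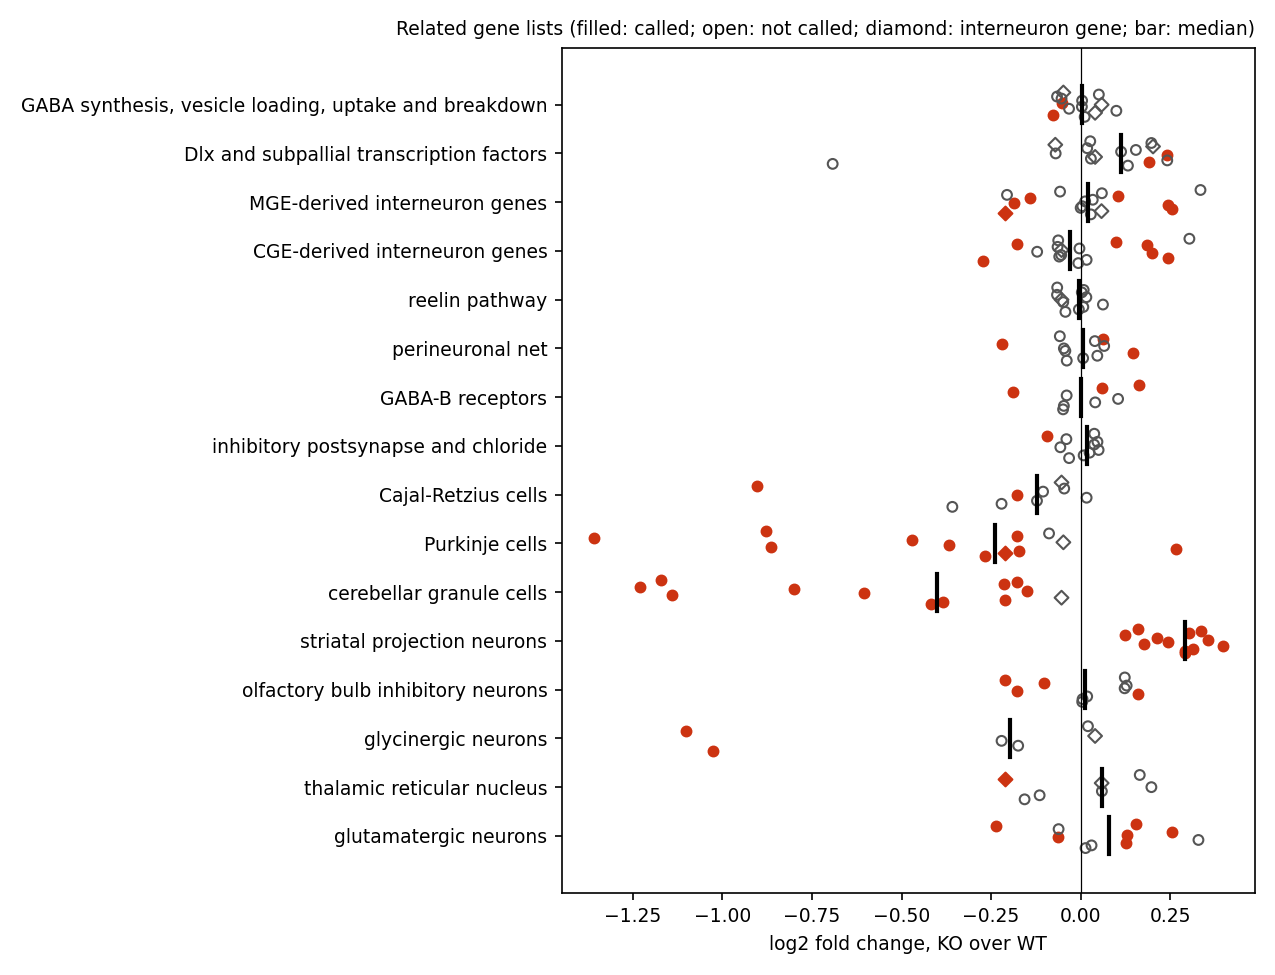
Log2 fold change, KO over WT (horizontal axis), of each measured gene of 16 related lists (rows), with filled symbols for called genes, open symbols for the rest, diamonds for the 9 interneuron genes and a bar at the median of each list. The GABA handling and reelin lists sit near 0, at 0.0036 and -0.0049, while the Purkinje, granule cell and striatal lists lie at -0.24, -0.40 and 0.29.

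A property that the choice of genes did not use is position. In the annotation, 6 of the 9 genes, Gad1, Gad2, Slc32a1, Lhx6, Dlx1 and Dlx2, are on chromosome 2. Dlx6 is on chromosome 6, Reln on chromosome 5 and Pvalb on chromosome 15. The 6 genes of chromosome 2 did not move together: 4 had positive and 2 negative estimates, and 0 passed.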

How the data were processed

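Messenger RNA from 2 WT and 2 KO libraries was measured by sequencing, and the authors deposited raw read counts per Ensembl gene in 1 table. The build was GRCm39 and the tools named are STAR 2.6.1c, featureCounts, FastQC and DESeq2, per the submitters' processing notes. Tool roles, annotation release and strand setting are not given in the sources. Of counts from 1 to 20, 72.8% to 74.3% were even, so both mates of a pair appear to be counted, and single counts are less precise than their size implies. Depth was 71097417 to 82172740 counts per library. Symbols matched 52081 of 55414 identifiers.

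The analysis used edgeR 4.0.16 (R 4.3.3): filterByExpr at a minimum count of 10 (21592 genes), TMM (factors 0.997 to 1.005), estimateDisp, then glmQLFit and glmQLFTest on genotype. Standard errors are the log2 fold change over the square root of F, and 95% intervals use the test's degrees of freedom. Exon lengths and chromosomes are from GENCODE M21 (GRCm38) and promoters from RefSeq (GRCm38.p6). Members, lists and tests were chosen with earlier results of these data known. Named were all 9 genes, Stra8, up to 4 genes of each list with the smallest p, genes of other cell types beside a member they share, and the 3 profiles nearest to the member with the smallest p. Genes chosen otherwise are Sst, Dlx5, Dlx1as, Dlx6os1, Dlx6os2, Gm14205, Slc17a7 and those marked in the text. Some genes that the rule takes are not reported by name. Alternatives were other scalings, filters and tools (DESeq2 1.42.0, limma-trend 3.58.1, edgeR with dispersion 0), halved counts, a replicate block, a looser threshold, X and Y genes left out, and each library left out. On simulated KO against WT data with 21105 genes tested, 30% of 1.1-fold, 60% of 1.2-fold, 94% of 1.5-fold and 100% of 2-fold changes were called, 50 genes each. Of 171 calls, 29 were of unchanged genes, a larger share than an adjusted p under 0.05 is meant to allow. The simulated variance was a fixed multiple of the mean, not fitted to these libraries, and changes were placed only in genes with high mean counts. These rates are therefore not the power or error rate of the real comparison.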

Additional observations from a re-analysis of the deposited data

How the results depend on the processing

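Over 9 genes and 14 alternative fits each, 121 of 126 values kept their direction and their side of the threshold, 4 newly passed and 1 changed sign. With 1 library left out Lhx6, at 0.058 in all 4, ranged from -0.029 (without WT library 1) to 0.15. Beyond the 9 genes, Dlx1as ranged from -0.048 (without WT library 2) to 0.39 and Dlx5 from -0.014 (without KO library 1) to 0.066, and neither was called. The number of the 9 genes called was 1 in the fit as reported. It was 2 with library size alone (Gad1 added), 2 with a minimum count of 50 (Gad2 added) and 2 at an adjusted p under 0.1 (Gad2 added). With 1 library left out it was 1 to 2, and the 2 came without WT library 1 (Reln added). With a replicate block the number was also 2 (Gad2 added, edgeR adjusted p = 0.0435). The labels do not say whether the replicate numbers pair the libraries. The deviations of WT library 1 and KO library 1 had a correlation of 0.029 over 11909 genes. That value shows no strong shared shift, but it cannot settle whether libraries of the same number were handled together. Over all genes, 723 were higher and 688 lower, and every alternative count was within 1.5 times of these. A lone library left in a genotype is assumed to vary like the other pair. At 621 to 799 reads per library Dlx6 had the widest interval of the 9, and a difference of the size estimated for it did not pass at this depth.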
